A study of Mus musculus with 10 samples.

Results

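The genes of antigen presentation by MHC class II molecules and of costimulation were followed through 5 types of mouse heart cells by RNA sequencing. They were the 10 genes H2-Aa, H2-Ab1, H2-Eb1, H2-DMa, H2-DMb1, Cd74, Ciita, Cd80, Cd86 and Cd40, chosen by their symbol, and all 10 were among the 36172 genes listed. The cells grew out of explants of the left atrial appendage, a small blind sac of the heart, from C57BL/6 mice aged 8 to 12 weeks, and each cell type had 2 libraries. B was a primary outgrowth after weak digestion with 0.05% trypsin and 0.1% collagenase D, sorted as c-kit+/CD45+. C1, C2 and C3 were cultures of B-type cells at passage 6, 8 and 10, with the markers c-kit+/CD45- for C1 and c-kit-/CD45- for C2 and C3. A was a primary outgrowth after strong digestion with 0.25% trypsin and the same collagenase D, sorted as c-kit+/CD45-. The study asked how both primary types differ and what B-type cells become in culture. Whether libraries of 1 type came from different animals or dishes is not labelled. All p-values therefore reflect the spread between the sequenced samples, which may be technical. Digestion and sort differ together between B and A and cannot be told apart. Between B and C1, passage in culture and the CD45 marker differ together and cannot be told apart either.

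MHC class II molecules are pairs of an alpha and a beta chain that show peptides from endosomes to CD4+ T cells, and macrophages, dendritic cells and B cells are the cells best known for carrying them. The chains are held by the invariant chain Cd74 until peptide is loaded with the help of H2-DM, and their genes are switched on together by the coactivator Ciita, which interferon gamma can induce through Jak kinases. A T cell also needs costimulation: CD80 and CD86 bind CD28 on it, and CD40 on the presenting cell receives its CD40 ligand. C57BL/6 mice carry a defective gene for the alpha chain of the E molecule, so the beta chain encoded by H2-Eb1 has no usual partner in this strain.

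The class II chain genes lie side by side on mouse chromosome 17. On build GRCm38, with GENCODE M21 as annotation, H2-Ab1 spans chr17:34257689-34269419 on the plus strand, H2-Aa chr17:34282744-34287823 on the minus strand and H2-Eb1 chr17:34305867-34316674 on the plus strand. H2-DMa, at chr17:34119541-34139101, and H2-DMb1, at chr17:34153072-34160230, share the region, both on the plus strand. Ciita is at chr16:10480059-10528418, Cd80 at chr16:38455561-38496335, Cd86 at chr16:36603869-36666081 and Cd40 at chr2:165055627-165072948, of which Cd86 alone is on the minus strand. H2-Eb1 overlaps the antisense gene Gm20513, H2-DMa overlaps Brd2 and Ciita overlaps Dexi. The library kit does not mark strand, so reads of overlapping genes cannot be told apart. H2-DMb1 has a near copy, H2-DMb2, which was at 0 in all 10 libraries, and reads of the pair could have been split between them.

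The upstream sequences of 3 of these genes are shown because they share a spaced pair of short motifs that classical descriptions of class II promoters name the X and Y boxes, where RFX and NF-Y bind. Promoters from RefSeq (GRCm38.p6) matched 5 of the 10 genes: H2-Aa, H2-Eb1, H2-DMa, H2-DMb1 and Cd80. Both strands were searched for GNAAC followed within 30 to 36 bases, counted from first base to first base, by ATTGG. The motifs do not overlap each other, and the search was chosen after the sequences had been seen. Capitals mark the pair in the 250 bases before the RefSeq start, written 5′ to 3′ on the strand of the gene, at chr17:34287824-34288073 (minus strand) for H2-Aa, chr17:34305617-34305866 (plus strand) for H2-Eb1 and chr17:34152941-34153190 (plus strand) for H2-DMb1. The RefSeq start equals the GENCODE gene start for H2-Aa and H2-Eb1. For H2-DMb1 it is base 34153191, which is 119 bases inside the GENCODE gene, so part of that window, with the pair, lies within the annotated gene span.
H2-Aa: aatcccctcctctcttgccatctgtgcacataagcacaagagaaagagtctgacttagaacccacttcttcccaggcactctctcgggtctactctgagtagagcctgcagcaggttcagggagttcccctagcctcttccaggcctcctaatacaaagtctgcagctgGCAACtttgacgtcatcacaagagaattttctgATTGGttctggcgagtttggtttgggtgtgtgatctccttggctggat
H2-Eb1: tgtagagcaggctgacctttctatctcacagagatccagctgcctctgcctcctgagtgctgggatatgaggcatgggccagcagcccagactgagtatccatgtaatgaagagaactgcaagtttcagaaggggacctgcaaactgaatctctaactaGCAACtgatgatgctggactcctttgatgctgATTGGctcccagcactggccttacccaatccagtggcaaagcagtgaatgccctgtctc
H2-DMb1: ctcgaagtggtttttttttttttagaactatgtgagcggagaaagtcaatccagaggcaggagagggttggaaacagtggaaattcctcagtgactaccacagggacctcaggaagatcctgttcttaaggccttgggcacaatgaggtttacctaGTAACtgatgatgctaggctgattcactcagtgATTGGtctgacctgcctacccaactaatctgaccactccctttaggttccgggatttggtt
From GNAAC to ATTGG there were 33 bases in H2-Aa, 32 in H2-Eb1 and 33 in H2-DMb1. Counted from the RefSeq start, ATTGG began at -48 in H2-Aa, -59 in H2-Eb1 and -61 in H2-DMb1. Of 32851 RefSeq mouse promoters of 300 bases, 1.25% held such a pair, and 37.4% held ATTGG alone on either strand. The H2-DMa and Cd80 windows held no such pair, which says only that these letters are not there. The RefSeq starts of the H2-DMa windows were 3291 and 5977 bases inside the GENCODE gene, and that of Cd80 was 3372 bases inside. The sequences before the GENCODE starts of H2-DMa and Cd80 were thus not searched.

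Values were deposited as log2 numbers, each gene being centred on its own median. For 7 of the genes the level could be restored in normalized reads, because libraries without reads mark a floor of 1 normalized read. For H2-DMa, H2-DMb1 and Cd80 only the differences between libraries are known, and they are given as log2 values relative to the gene's own median. Libraries differed in depth by 11.5 times. A count of 0 allows up to 3 reads, or 5.04 to 6.88 normalized reads in a B or A library. The limit was 3.02 and 2.00 in the C1 libraries, 6.12 and 3.11 in the C2 libraries and under the floor in C3. In the C3 libraries 1 normalized read stood for 3.86 and 5.03 reads, so fewer reads than that also appear at the floor. These limits cover counting error only. Of the 10 genes, 9 passed the filter of 10 normalized reads in at least 2 libraries, and Ciita did not. H2-Aa, H2-Eb1, Cd74, Cd86 and Cd40 passed it only through their high B libraries, so they had to differ from some type, and counts of changed genes among them are no support for a trend. Rose and fell are used for genes with an adjusted p under 0.05 in limma and a log2 difference of 1 or more. Each ± beside a difference is limma's standard error for 2 libraries in a type. The spread behind it is shared by all 10 libraries, so that a gap between the A libraries enters every comparison of a gene. Libraries at the floor show no spread, which lowers the standard errors and p-values of genes such as H2-Aa and Cd86. The A libraries stood apart from each other in both sort markers. Kit, which encodes the sort marker c-kit, had 22.9 and 12.7 normalized reads in the B libraries, 35.3 and 66.4 in C1, 1 and 3.11 in C2, 1 and 1 in C3, and 3.36 and 72.3 in A, so that A replicate 1, although sorted as c-kit+, was under its limit of 5.04. Ptprc, the gene of CD45, is given with H2-Ab1.

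In B cells 6 of the 7 genes with a known level stood far above their limits, in C1 only Cd74, Cd40 and Ciita were above theirs, and in C3 all 7 were at the floor. Per kilobase of transcript, Cd74 had the highest mean level in B with 233 normalized reads per kb, followed by H2-Ab1 with 135, Cd86 with 85.2, H2-Aa with 76.4, H2-Eb1 with 35.0, Cd40 with 34.8 and Ciita with 1.02. The neighbours Cd86 and H2-Aa overlapped between libraries, at 90.7 and 79.7 against 71.0 and 81.9 per kb, and so did H2-Eb1 and Cd40. Summed over those of the 7 genes that were above the floor, there were 955 and 973 normalized reads in the B libraries, 23.3 and 15.6 in C1, 2.04 and 6.21 in C2, 0 and 0 in C3, and 50.2 and 233 in A. The A libraries thus lay far apart, and the B libraries close together. In RNA from many cells, fewer cells of a type and less RNA per cell cannot be told apart.

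**Figure D1:**
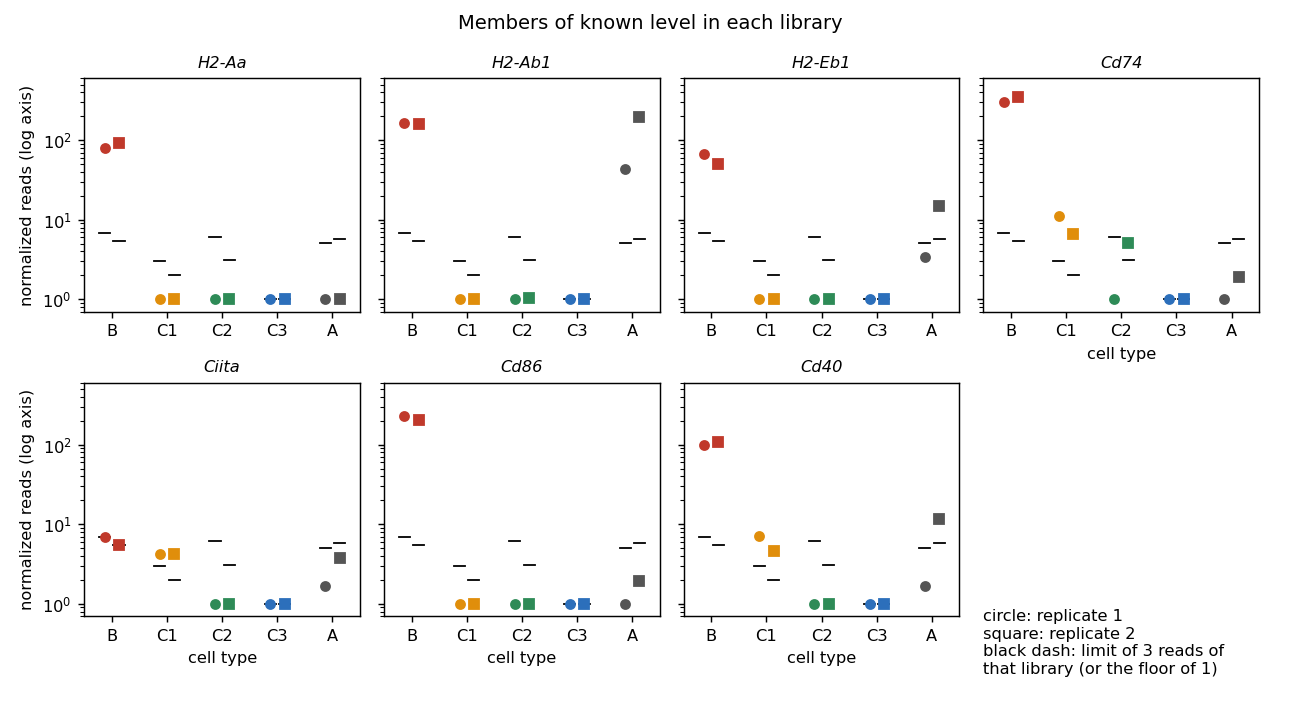
Normalized reads (vertical log axis) of the 7 genes with a known level in each of the 10 libraries, by cell type, with the limit of 3 reads or the floor of 1 as a black dash. H2-Aa and Cd86 stand above their limits in B alone, H2-Ab1 in B and in both A libraries, and all 7 genes lie at the floor in C3.

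Over the list, 6 of 9 tested genes rose in B relative to A and 0 fell, where 14.5% of all 14254 tested genes rose and 12.4% fell. By quantile normalization 4 rose and 1, H2-Ab1, fell, where the 2066 higher and 1769 lower of all genes became 1484 and 1714. In C1 relative to B, 8 of 9 fell, where 21.1% of all genes fell and 12.6% rose. By quantile normalization 6 of the 9 fell, where the 1799 higher and 3005 lower genes of this comparison became 2290 and 2240. In C1 relative to A, Cd74 rose and H2-Ab1, H2-Eb1 and H2-DMb1 fell, the last by 2.51 ± 0.32 (limma adjusted p = 0.00138). Of all genes, 10.1% rose and 16.6% fell (1433 and 2365 genes, or 2219 and 2105 by quantile normalization). With quantile normalization 1 of the 9 rose and 4 fell in C1 relative to A. In C2 relative to C1, H2-DMb1 rose and Cd40 was called lower, against 12.2% and 8.18% of all genes (1740 and 1166, or 1948 and 2014). With quantile normalization 1 of the 9 rose and 2 fell at this step. H2-DMb1 was the only one to fall in C3 relative to C2, against 16.2% of all genes, while 11.6% rose (2315 and 1657, or 1865 and 2080). In C3 relative to C1, Cd74 and Cd40 fell, against 17.7% lower and 17.1% higher of all genes. Median log2 differences of the 9 genes were 3.01 in B relative to A, -5.26 in C1 relative to B, -1.08 in C1 relative to A, 0 in C2 relative to C1, -0.04 in C3 relative to C2 and -0.81 in C3 relative to C1, where the median of all tested genes was between -0.07 and 0.01. These comparisons share libraries. Between the passages, the share of the 9 genes that passed was near or below that of all tested genes. However, H2-Aa, H2-Ab1, H2-Eb1 and Cd86 were at or under their limits in C1, C2 and C3 alike. Cd74 and Cd40 were so in C2 and C3 by their means, although Cd74 in C2 replicate 2, at 5.18, was above that library's limit of 3.11. Apart from Cd74 in that library, these genes had no room to fall there. The share and the medians between passages were thus largely set by the floor.

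**Figure D2:**
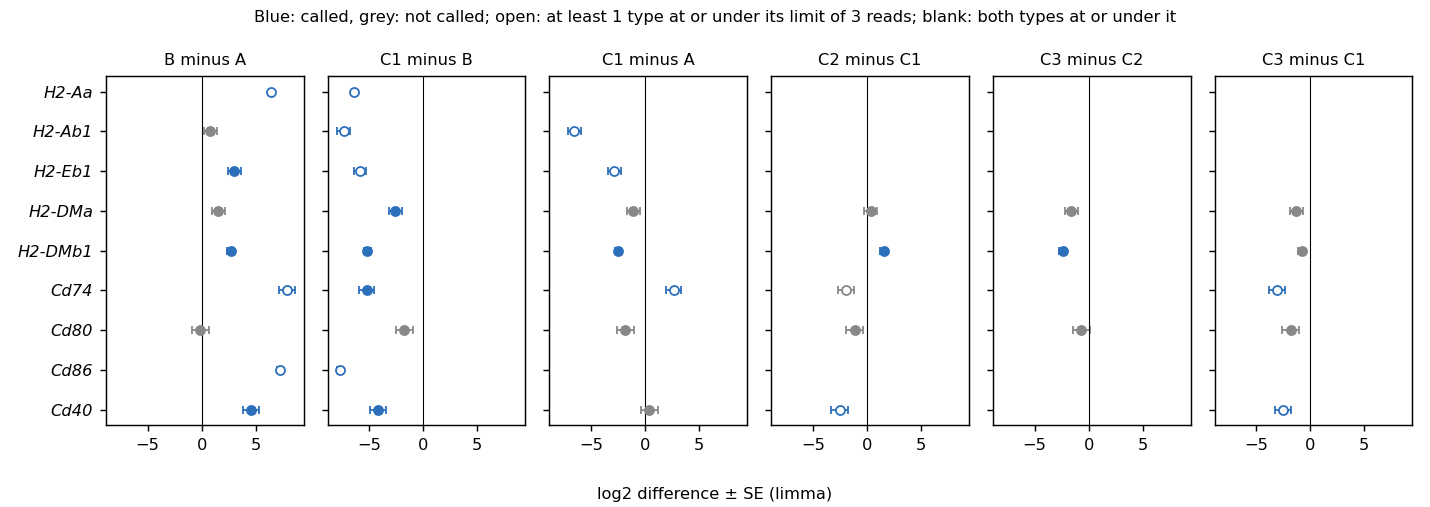
Log2 differences (horizontal axis, ± SE from limma) of the 9 tested genes in the 6 comparisons. Open points have at least 1 type at or under its limit of 3 reads, so that their position depends on the floor. H2-DMa, H2-DMb1 and Cd80 are drawn filled throughout, although their levels, and so their place against the limits, are unknown. Blue points passed the test: 6 of 9 are higher in B than in A, and 8 of 9 are lower in C1 than in B.

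The chains of the A molecule, H2-Aa (alpha) and H2-Ab1 (beta), which pair with each other, were both above their limits in B, but in A only H2-Ab1 was. H2-Aa had 80.1 and 92.4 normalized reads in the B libraries, against 1 and 1 in A. It was at the floor in all C libraries as well, so no library outside B held it above its limit. H2-Aa rose at least 15.0-fold in B relative to A and fell at least 28.5-fold in C1 relative to B (limma adjusted p = 6.49e-07 in both). Its A and C libraries, all at the floor, had no spread, which lowers this p-value.

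H2-Ab1 had 167 and 161 normalized reads in the B libraries, against 43.4 and 198.7 in A. The B values lay between those of the A libraries, so the groups overlapped. The difference of 0.82 ± 0.60 on the log2 scale did not pass (limma adjusted p = 0.316), and it turned to -2.80 under quantile normalization, where it passed as lower (adjusted p = 0.00792). It was -0.28 without A replicate 1 and passed at 1.92 without A replicate 2 (limma adjusted p = 0.000115). In culture H2-Ab1 had 1.04 normalized reads or fewer in all 6 libraries, and it fell at least 54.3-fold in C1 relative to B and at least 40.0-fold relative to A (limma adjusted p = 0.000129 and 0.000404).

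H2-Eb1, the beta chain of the E molecule, had 66.4 and 50.5 normalized reads in the B libraries, against 3.44 and 14.9 in A. The groups did not overlap, and A replicate 1 was under its limit of 5.04. H2-Eb1 rose by 3.01 ± 0.59 on the log2 scale in B relative to A (limma adjusted p = 0.00671). This call ended under quantile normalization, at 0.41 (adjusted p = 0.445), and in a fit of those 4 libraries alone (limma adjusted p = 0.0899). In C1 it had 1.01 and 1 normalized reads, under both limits, at least 19.3-fold below B and at least 3.04-fold below A (limma adjusted p = 0.000300 and 0.00840), of which the difference from A ended in the fit of 4 libraries (0.0968). Of the other class II chains, H2-Eb2, the defective H2-Ea-ps and H2-DMb2 were at 0 in all 10 libraries, and H2-Oa and H2-Ob, which form a regulator of H2-DM, reached at most 2.29 and 6.88 normalized reads, both in B replicate 1.

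The contrast between H2-Ab1 and the other genes in A can be set beside markers of 2 cell types. Ptprc, which encodes the sort marker CD45, had 2823 and 2723 normalized reads in the B libraries, against 6.72 and 82.1 in A, which was sorted as CD45-. Per unit of transcript length, H2-Ab1 was at 0.248 times Ptprc in both B libraries, against 27.0 and 10.1 times in the A libraries. It was at 1.94 and 1.62 times H2-Aa in B, against at least 8.01 and at least 32.2 times in A. Over the 10 libraries, the genes whose log2 values followed H2-Ab1 most closely were Pecam1 (Pearson r = 0.999), L1cam (0.998), Tspan18 (0.996), Cdh5 (0.995) and Cdh19 (0.993), a ranking made for H2-Ab1 after its values had been seen. In most of the libraries these genes share the floor. Pecam1 and Cdh5 are adhesion molecules of endothelial cells and are on the endothelial list. L1cam, Tspan18 and Cdh19 were on none of the marker lists and were not followed further, so the cell types behind the ranking were not tested. Pecam1 had 34.4 and 32.6 normalized reads in B, against 16.8 and 38.3 in A, and Cdh5 had 43.4 and 34.4 in B, against 26.8 and 49.8 in A, so both overlapped between the types as H2-Ab1 did. Kdr, the main receptor of vascular endothelial growth factor, did not overlap, with 213.5 and 198.4 in B, against 1 and 3.83 in A, at least 35.8-fold higher in B (limma adjusted p = 0.000248). The summed level of the 7 endothelial markers with a known level was 355 and 325 normalized reads in B, against 118 and 191 in A. Without Kdr the sums of the other 6 were 142 and 126 in B, against 118 and 187 in A, and overlapped. For the macrophage list, whose 4 genes with a known level summed to 21416 and 20656 in B, the A libraries had 11.8 and 335. The part of either cell type in the H2-Ab1 values was not tested.

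**Figure D3:**
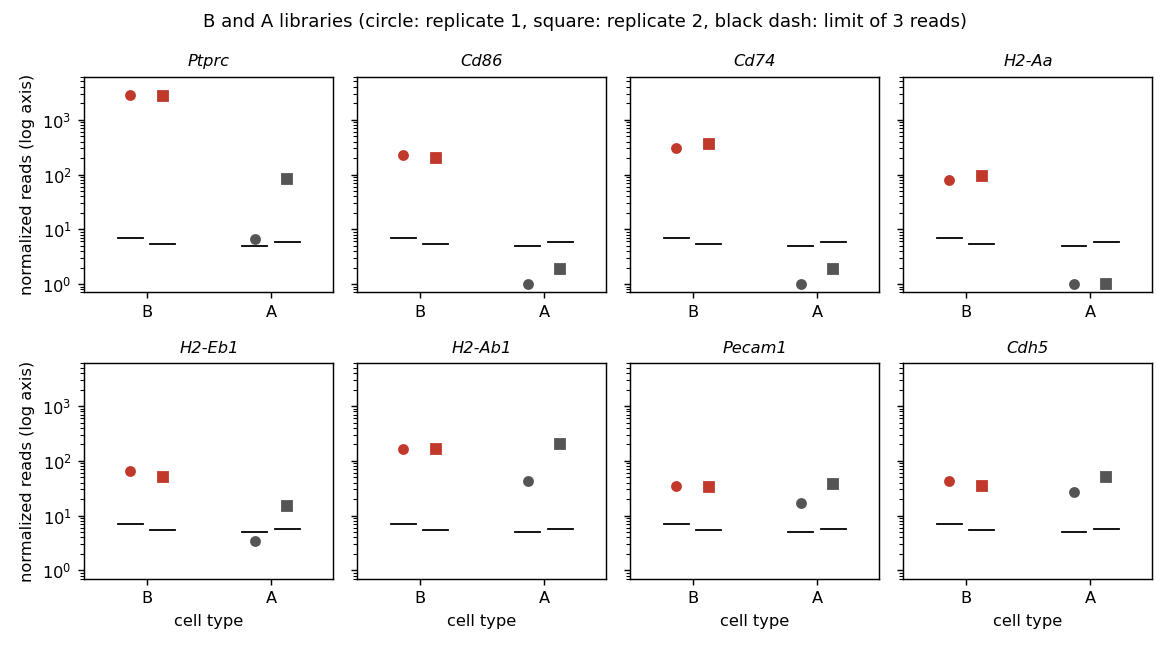
Normalized reads (vertical log axis) of Ptprc, 5 of the presentation genes and the endothelial genes Pecam1 and Cdh5 in the B and A libraries, with the limit of 3 reads as a black dash. H2-Ab1, at 167 and 161 in B and at 43.4 and 198.7 in A, overlaps between the types as Pecam1 and Cdh5 do, while H2-Aa, Cd74 and Cd86 are under their limits in both A libraries.

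A replicate 2 exceeded A replicate 1 by 2.19 on the log2 scale for H2-Ab1, 2.11 for H2-Eb1, 1.79 for H2-DMa, 0.89 for H2-DMb1, 1.06 for Cd80 and 2.77 for Cd40, and by 3.61 for Ptprc and 5.22 for Emr1, the gene of the macrophage antigen F4/80. The same 8 genes were thus all higher in the same A library. H2-Aa had no read in either A library, and Cd74 and Cd86 had 1 read each, worth 1.92 normalized reads, in A replicate 2 alone. With A replicate 2 left out, 8 of the 9 tested genes rose in B relative to A, where 16.9% of all tested genes rose in the same fit.

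Peptide loading was followed through Cd74, the invariant chain, and H2-DM. Cd74, at chr18:60803848-60812652 on the plus strand, had 304 and 354 normalized reads in the B libraries, 11.1 and 6.68 in C1, 1 and 5.18 in C2, 1 and 1 in C3, and 1 and 1.92 in A. Both C1 libraries were above their limits of 3.02 and 2.00, C2 replicate 2 was above its limit of 3.11, and neither A library was above its own. In B it rose at least 57.2-fold relative to A (limma adjusted p = 0.000338). It fell by 5.26 ± 0.72 on the log2 scale in C1 relative to B (limma adjusted p = 0.00111), a call that ended under quantile normalization, at -0.94 (adjusted p = 0.456). C1 stood at least 1.54-fold above A (limma adjusted p = 0.0242), a difference that no longer passed without A replicate 1 or without either C1 library (0.0594 to 0.117). By passage 10 it was at the floor, at least 8.86-fold below C1 (limma adjusted p = 0.01003), which ended without C1 replicate 1 (0.0601).

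H2-DMb1, the beta chain of H2-DM, was the only 1 of the 9 tested genes that was called in both directions among the cultures. Relative to its median it was at 3.51 and 3.71 on the log2 scale in the B libraries, -1.39 and -1.77 in C1, -0.08 and 0.08 in C2, -2.13 and -2.65 in C3, and 0.48 and 1.37 in A. No 2 neighbouring passages overlapped. It rose by 2.68 ± 0.32 in B relative to A and fell by 5.19 ± 0.32 in C1 relative to B (limma adjusted p = 0.000980 and 4.42e-05). From passage 6 to passage 8 it rose by 1.58 ± 0.32 in C2 relative to C1 (limma adjusted p = 0.0102), a call that ended without C1 replicate 2 (0.0636) or C2 replicate 2 (0.0523). It then fell by 2.39 ± 0.32 in C3 relative to C2 (limma adjusted p = 0.00148), which left C3 at -0.81 ± 0.32 relative to C1, short of the threshold (0.0731).

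H2-DMa, the alpha chain, stood at 2.25 and 2.60 in the B libraries, at -0.38 and 0.00 in C1, at -0.22 and 0.52 in C2, at -1.92 and -1.02 in C3, and at 0.00 and 1.79 in A, again in log2 relative to its median. B lay above every other library, but A replicate 2 was closer to B than to A replicate 1. The difference of 1.54 ± 0.60 between B and A did not pass (limma adjusted p = 0.0829), and it passed at 2.43 without A replicate 2 (limma adjusted p = 0.00792). In C1 it fell by 2.61 ± 0.60 relative to B (limma adjusted p = 0.00994), which ended without B replicate 2 (0.0576) or C1 replicate 1 (0.0561). C2 and C1 overlapped. C3 was at -1.62 ± 0.60 relative to C2 (limma adjusted p = 0.0642), which passed without either A library (0.0135).

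**Figure D4:**
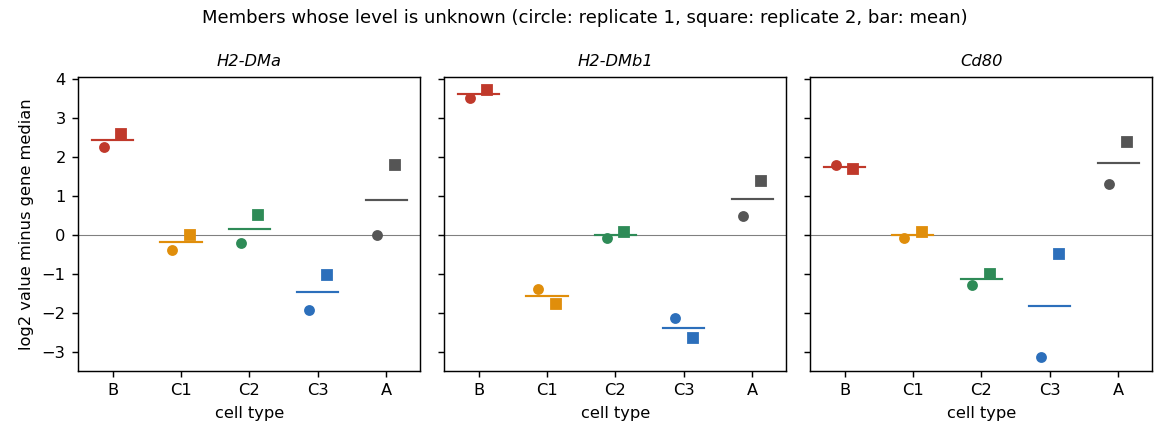
Log2 values relative to the gene's own median (vertical axis) of H2-DMa, H2-DMb1 and Cd80 in each library by cell type, with the mean of a type as a bar. H2-DMb1 is highest in B at 3.51 and 3.71 and lies higher in C2 than in C1 and C3, while the C3 libraries of Cd80 are 2.67 apart.

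Ciita, the coactivator on which class II transcription depends, had few reads in every type. The B libraries had 6.88 and 5.43 normalized reads, C1 4.21 and 4.27, C2 1 and 1, C3 1 and 1, and A 1.68 and 3.80. The B values correspond to exactly the 3 reads that a count of 0 allows in each, so B was not above its limit at this depth, whereas the deeper C1 libraries were above theirs. C3 was at least 4.24-fold below C1, and Ciita was not tested because it did not pass the filter. All 7 factors known to bind class II promoters were tested, with a median difference of 0.20 in B relative to A and -0.11 in C1 relative to B. Of these, Nfya, a subunit of NF-Y, rose by 1.57 ± 0.13 in B relative to A and fell by 1.93 ± 0.13 in C1 relative to B (limma adjusted p = 0.000221 and 5.46e-05). The other 6, Rfx5, Rfxap, Rfxank, Nfyb, Nfyc and Creb1, did not pass in either comparison. A second factor was called when 1 library was left out, Rfxank higher in B than in A without A replicate 2 and Rfxap lower in C1 than in B without C1 replicate 1. Of the genes listed between interferon gamma and Ciita, 6 were tested, of which 1 rose and 1 fell in B relative to A. Ifngr2, a chain of the interferon gamma receptor, rose by 1.25 ± 0.16 in B relative to A (limma adjusted p = 0.00114), and its partner Ifngr1 fell by 1.14 ± 0.21 in C1 relative to B (0.00372), which ended under quantile normalization, at -0.84. Socs1, an inhibitor of the pathway, was called lower in B than in A, at -1.40 ± 0.44 (limma adjusted p = 0.0419), and this call ended in 12 of the 16 alternatives.

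Among the costimulatory genes, Cd86 and Cd40 rose in B relative to A, while the B values of Cd80 lay between those of the A libraries. Cd86 had 230 and 202 normalized reads in the B libraries, against 1 and 1.92 in A, and was at the floor in all 6 C libraries. It was thus above its limit in B alone. Cd86 rose at least 37.7-fold in B relative to A and fell at least 71.6-fold in C1 relative to B (limma adjusted p = 1.07e-05 and 5.40e-06).

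Cd40, the receptor for the CD40 ligand of T cells, had 100.5 and 107.5 normalized reads in the B libraries, 7.05 and 4.66 in C1, 1 and 1 in C2, 1 and 1 in C3, and 1.68 and 11.5 in A. C1 lay within the range of the A libraries. In B it rose by 4.56 ± 0.77 on the log2 scale relative to A (limma adjusted p = 0.00373), a call that ended under quantile normalization (2.25, 0.0638) and in the fit of 4 libraries (0.0677). It fell by 4.18 ± 0.77 in C1 relative to B (limma adjusted p = 0.00390), which ended under quantile normalization (-1.04, 0.306). C3 was at least 5.86-fold below C1 (limma adjusted p = 0.0295), a call that ended when any of 8 single libraries was left out (0.0502 to 0.129). The step to C2 also passed (limma adjusted p = 0.0420) but ended in 11 of the 16 alternatives, and the C1 mean of 5.86 normalized reads lay under the C2 limit of 6.12, so no fold can be given.

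Cd80, which shares its T cell receptors with CD86, was at 1.79 and 1.70 in the B libraries, -0.09 and 0.09 in C1, -1.28 and -0.997 in C2, -3.15 and -0.48 in C3, and 1.31 and 2.38 in A, in log2 relative to its median. Between B and A the difference was -0.10 ± 0.78 (limma adjusted p = 0.935). From B through C2 each type lay below the one before it without overlap. The difference of -1.74 ± 0.78 in C1 relative to B did not pass with all 10 libraries (limma adjusted p = 0.103) and a gap of 2.67 between the C3 libraries. It passed without either C3 library (limma adjusted p = 0.00935) and in the fit of the B and C1 libraries alone (0.00221). This makes Cd80 the only one of the 9 tested genes that was called in none of the 6 comparisons.

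Most genes of the endosomal list were higher in B as well. The list holds proteases that cut antigen and the invariant chain, but Ifi30, Cst3, Cd63, Lamp1 and Lamp2 on it are not proteases. Of the 11 listed genes, 10 rose and 0 fell in B relative to A, with a median of 1.91 where that of all tested genes was 0.01. By quantile normalization 6 of the 11 rose, with Ctss, Ctsh, Cst3 and Lamp2 losing their calls. The largest differences were those of Ctss, the cathepsin that trims the invariant chain in macrophages and dendritic cells, at 8.64 ± 1.62, Ctsd at 4.21 ± 0.27, Ctsb at 3.84 ± 0.32 and Lgmn, an asparagine-specific endopeptidase, at 3.18 ± 0.19 (limma adjusted p = 0.00560, 9.96e-05, 0.000239 and 6.47e-05). Relative to its median, Ctss was at 11.88 and 11.93 in B, against 0.58 and 5.94 in A, and its call ended under quantile normalization (4.39, 0.0681) and in the fit of 4 libraries (0.0696). In C1 relative to B, 7 of the 11 fell and 0 rose, at a median of -2.15 (5 fell and 1, Cst3, rose by quantile normalization, where Ctsb and Ctsl lost their calls), with Ctss at -12.13 ± 1.62 and Ctsd at -4.57 ± 0.27 (limma adjusted p = 0.000965 and 3.79e-05). Of the genes that control the turnover of class II and CD86 at the surface, March1, a ubiquitin ligase that marks both for degradation, rose by 6.68 ± 0.64 in B relative to A and fell by 7.28 ± 0.64 in C1 relative to B (limma adjusted p = 0.000406 and 0.000173). Cd83, which opposes March1, had 770 and 799 normalized reads in the B libraries, against 1 and 26.8 in A. It rose by 7.24 ± 1.28 (limma adjusted p = 0.00447), a call that ended under quantile normalization (3.19, 0.0639) and in the fit of 4 libraries (0.0761). March8 passed in neither comparison.

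Of 11 other ligands of costimulation and coinhibition, 7 were tested, of which 3 rose in B relative to A and 5 fell in C1 relative to B, with 0 in the opposite direction and medians of 1.24 and -2.08. By quantile normalization 3 of them fell in C1 relative to B. Cd48, a ligand of the SLAM family, had 887 and 923 normalized reads in B, against 1.68 and 7.66 in A, at least 157-fold higher (limma adjusted p = 0.000165). Cd274, which encodes the inhibitory ligand PD-L1, rose by 5.56 ± 0.59 and Tnfrsf14, whose product binds BTLA, by 1.53 ± 0.31 in B relative to A (limma adjusted p = 0.000606 and 0.00810), and the Tnfrsf14 call ended without B replicate 2 (0.0502). Downstream of CD40, 10 of 13 genes were tested, and Traf1, at 3.07 ± 0.90, and Rel, at 1.85 ± 0.29, rose in B while Traf5 fell by 1.62 ± 0.19 (limma adjusted p = 0.0331, 0.00270 and 0.000981). Traf1 had 37.3 and 52.5 normalized reads in B, against 1.68 and 16.6 in A, and its call ended in 10 of the 16 alternatives, Rel's in the fit of 4 libraries (0.0563). Cd40lg, the CD40 ligand itself, was at 0 in all 10 libraries, as was Ifng.

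Among the receptors that T cells use for these ligands, Cd28 had 427 and 445 normalized reads in the B libraries, against 1 and 3.83 in A, at least 75.9-fold higher. Cd4, the coreceptor that binds class II, had 43.6 and 32.6 in B, against 1 and 1.92 in A, at least 6.63-fold higher (limma adjusted p = 0.000182 and 9.55e-05). Both fell in C1 relative to B, Cd28 at least 144-fold and Cd4 at least 12.6-fold (limma adjusted p = 6.44e-05 and 8.86e-05). Cd3d and Cd3e, which define T cells, were at 0 in all 10 libraries, as were Ctla4 and Pdcd1. The 3 markers of T and NK cells with a known level summed to 6.88 and 3.62 normalized reads in B. Lck, whose level is unknown, was the only tested gene of that list and took another course. Its log2 values relative to its median were -0.36 and -0.70 for B, below C2 (2.64 and 2.88) and C3 (1.81 and 1.48). Lck rose by 2.76 ± 0.29 in C2 relative to C1 (limma adjusted p = 0.000835). Its difference of 0.65 ± 0.29 between B and A did not pass (limma adjusted p = 0.116).

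The markers of other cells that carry class II moved with these results as follows. All 11 macrophage genes rose in B relative to A, at a median of 7.05, and all 11 fell in C1 relative to B. In the fit of 4 libraries 5 of the 11 rose in B relative to A, and by quantile normalization 9 did. Cd14, a coreceptor for lipopolysaccharide, lost its call in C1 relative to B under quantile normalization (-0.093, adjusted p = 0.943) and without B replicate 2 or C1 replicate 2 (0.0512 and 0.0619). Of 5 tested dendritic cell genes, 4 rose in B relative to A, led by Itgax at 7.33 ± 1.39 and Irf8 at 6.08 ± 1.18, while Zbtb46 fell by 2.10 ± 0.19 (limma adjusted p = 0.00585, 0.00650 and 0.000323), and Flt3, Cd209a and Siglech were at 0 throughout. By quantile normalization and in the fit of 4 libraries only 1 of the 5, Dpp4, rose. Dpp4 lay near its limits in B, at 6.84 and 9.05 normalized reads where the limits were 6.88 and 5.43. It was at least 1.38-fold higher in B than in A. Itgax was at 2.82 by quantile normalization (adjusted p = 0.15) and had an adjusted p of 0.0830 with 4 libraries, and Irf8 was at 2.03 (0.180) and had 0.0744. The 8 dendritic cell genes with a known level summed to 6131 and 5967 normalized reads in the B libraries, 6.05 and 4.67 in C1, 45.9 and 41.5 in C2, 5.93 and 5.81 in C3, and 18.5 and 256 in A. In C2 most of the sum was Dpp4, a peptidase found on many cell types, at 42.9 and 36.3, and without it the C2 sums were 3.06 and 5.18. Of the B cell markers, Cd79b and Pax5 were at 0 throughout, and the other 5 summed to at most 9.42 in any library. For mast cells, Tpsb2, Fcer1a and Ms4a2 were at 0 throughout, and the other 3 summed to at most 7.17. Of 10 fibroblast genes, 6 fell in B relative to A and 0 rose, and of 6 tested endothelial genes 2, Kdr and Vwf, rose. Vwf, at 3.05, lost its call in 11 of the 16 alternatives, and by quantile normalization 1 endothelial gene, Kdr, rose and 3, Pecam1, Cdh5 and Tie1, fell. In C1 relative to B, all 6 endothelial and 4 of 10 fibroblast genes fell. The part of the macrophage and dendritic cell genes in the presentation results was not tested.

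Between passage 8 and passage 10, 11.6% of all tested genes rose and 16.2% fell. The class II genes of known level were at the floor in C3. Of the 6 tested genes listed between interferon gamma and Ciita, 1 rose in C3 relative to C2 and 0 fell. The gene that rose was Jak1, a kinase of the interferon receptors, at 1.16 ± 0.12 (limma adjusted p = 0.000555). Jak1 had fallen by 1.12 ± 0.12 in C2 relative to C1, and C3 was at 0.04 ± 0.12 relative to C1 (limma adjusted p = 0.000936 and 0.841). The median of the 6 was 0.62, and a second gene rose without either C2 library, Socs1 or Jak2. Ciita, H2-Aa, H2-Ab1, H2-Eb1, Cd74, Cd86 and Cd40 were all at the floor of 1 normalized read in both C3 libraries, which are the deepest. Rfx5, a subunit of the factor that binds the X box, fell by 1.14 ± 0.16 (limma adjusted p = 0.00178) and was the only 1 of 7 promoter-binding factors called. Nfyc, at 0.93 ± 0.17, stayed under the log2 threshold of 1. Relative to C1, Rfx5 was at 0.87 ± 0.16 in C2 and -0.27 ± 0.16 in C3, and neither difference was called.

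At the same step 2 of the 7 tested ligands of costimulation and coinhibition rose and 2 fell, against 11.6% and 16.2% of all tested genes. Cd274 stood at 3.09 and 3.85 in C3, against -1.34 and -1.64 in C2, in log2 relative to its median, and rose by 4.96 ± 0.59 (limma adjusted p = 0.000916). Cd276, which encodes B7-H3, fell by 2.92 ± 0.26 (limma adjusted p = 0.000331). Icosl, the ligand of ICOS, fell by 2.58 ± 0.61 and Tnfsf18 rose by 1.96 ± 0.53 (limma adjusted p = 0.0131 and 0.0216). The Icosl call ended under quantile normalization (-0.68, 0.490), in the fit of 4 libraries (0.101) and without either C3 library (0.0544 and 0.0656). Tnfsf18 likewise lost its call in the fit of 4 libraries (0.0688) and without either C2 library or C3 replicate 1 (0.0614 to 0.110). In C2 relative to C1, Tnfsf18 had fallen by 2.78 ± 0.53, and C3 was at -0.81 ± 0.53 relative to C1 (limma adjusted p = 0.00777 and 0.238). Of the 11 endosomal genes, 2 fell and 0 rose, where 16.2% of all tested genes fell. Ctsh, an aminopeptidase, fell by 3.79 ± 0.21 and Lgmn by 1.26 ± 0.19 (limma adjusted p = 6.29e-05 and 0.00198). The Lgmn difference turned to 0.13 under quantile normalization. In C3 relative to C1, Cd274 rose by 3.60 ± 0.59 (limma adjusted p = 0.00221).

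**Figure D5:**
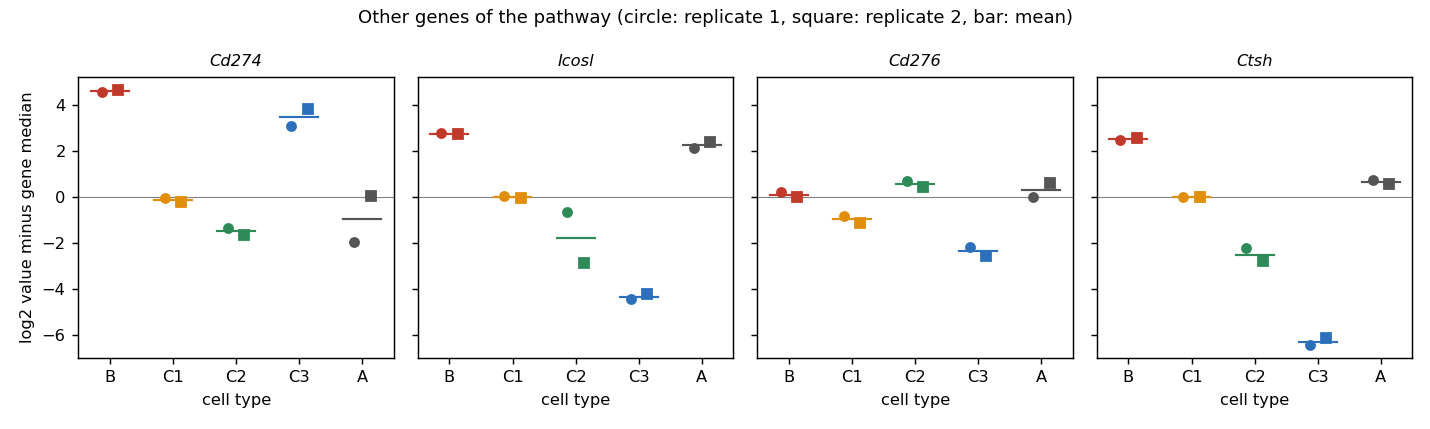
Log2 values relative to the gene's own median (vertical axis) of Cd274, Icosl, Cd276 and Ctsh in each library by cell type, with the mean of a type as a bar. In C3, Cd274 is at 3.09 and 3.85, above both C2 libraries, while Icosl, Cd276 and Ctsh are below them.

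The genes whose log2 values followed single presentation genes most closely over the 10 libraries were found by Pearson correlation. For Cd86 they were Adra2c, Aif1, Lilra5, Sel1l3 and Gm14461, with r between 0.99994 and 0.99999. Aif1 is a macrophage marker, at least 26.7-fold higher in B than in A. For Cd40 they were Cds1 (0.996), Cdk9, Gm6377, Cd33 and Lyz2 (0.988 to 0.989), and for Cd74 Vipas39 (0.988), Slc38a9 (0.984), Galns, Coro7 and Snx1 (0.971 to 0.973). Lyz2 encodes the lysozyme of macrophages and Cd33 a lectin of myeloid cells. The libraries come as 5 pairs, and most of them share a low value or the floor for these genes, so these values describe a common pattern of B against the rest.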

How the data were processed

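Total RNA of 10 libraries (5 cell types, 2 each) was sequenced after preparation with an Illumina TruSeq kit that does not mark strand. Types and replicate numbers come from the sample titles. The submitters' processing notes name TopHat, DESeq and mm10 with no version, role or order; for the counter and annotation nothing is stated. The table deposited by the authors holds log2 values, whose making no source states. From the values they were read as the log2 of size-scaled read counts, raised to a floor of 1 and centred on each gene's median, which was 0 within 1e-05 for 17821 of 17821 genes with values. Between 32.9% and 73.8% of low values per library lay within 0.01 of whole reads, so no count test was run, and depths, floors and limits rest on this reading. Relative depth ran from 0.436 to 5.03. On simulated data of 4000 genes the read spacing was recovered in 10 of 10 libraries.

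In 17 genes a cell had become a date, and they were left out. Levels are known for 4762 genes with at least 2 libraries at the floor. The filter of 10 normalized reads in 2 libraries removed 3567 genes and left 14254, of which 13059 have no known level and could not be filtered. limma 3.58.1 (R 4.3.3) was fitted to all 10 libraries with a mean per type, 5 residual degrees of freedom and 1.93 prior degrees of freedom, two-sided, with Benjamini-Hochberg adjustment in each of 6 comparisons, without a pseudocount. On simulated data for B minus A over 14254 genes it recovered 68% of log2 changes of 2 and 90% of log2 changes of 4. Where a type was at or under its limit of 3 reads, the fold is a bound, with the mean of the other type set against the higher limit of the 2 libraries. Levels per kb use the longest GENCODE M21 transcript that is linked to a RefSeq mRNA. Traf5 is listed on 2 rows, of which the one with values was used.

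The named genes are the 10 members, up to 4 called genes of each list with the largest differences, and the 5 genes most correlated with Cd74, Cd86 and Cd40. The members, lists and rule were chosen with earlier results of these data known. Of the lists, 1 gene each of the interferon gamma and B cell lists is not reported here and is in none of their counts. Same-numbered libraries of different types did not deviate together, with correlations of -0.06 to 0.09 over 10 pairs and 0 above 0.1, so the numbers do not pair samples. Alternatives were no filter, median centring and quantile normalization, a pseudocount of 5, fits of 4 libraries, a replicate block and leaving out each library. For genes outside the 10 they were added after the data had been seen.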

Additional observations from a re-analysis of the deposited data

How the results depend on the processing

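For the 10 genes, 38 differences were recomputed under 16 alternatives, 608 values in all. Direction and side of the threshold held in 544, 35 lost their call, 22 gained one and 7 changed sign. For other listed genes, only the 200 differences that had been called with all 10 libraries were recomputed, so a gained call could not be counted. Of these 3200 values, 2944 held, 255 lost their call and 1 changed sign. Signs changed for H2-Ab1 in B relative to A (-2.80 under quantile normalization, -0.28 to 1.92 leaving out 1 library), for Cd80 in C3 relative to C2 (0.31 under quantile normalization, -2.01 to 0.65 leaving out 1 library) and in B relative to A (-0.63 to 0.43), for H2-DMa in C2 relative to C1 (-0.034 to 0.71), for Cd40 in C1 relative to A (-1.003 to 1.77) and for Lgmn in C3 relative to C2 (0.13 under quantile normalization). The cause was not tested. Leaving out 1 library moved the number of the 9 tested genes called to 6 to 8 in B relative to A, 7 to 9 in C1 relative to B, 3 to 5 in C1 relative to A, 0 to 2 in C2 relative to C1, 1 to 2 in C3 relative to C2 and 0 to 3 in C3 relative to C1. The number of all tested genes called moved in the same fits as well, so these ranges alone do not set the 9 genes apart. With a pseudocount of 5, 1 gene was called in C2 relative to C1 and 1 in C3 relative to C1. Of all tested genes, 2859 and 4913 were called there. With the replicate number as a block, 1 gene was called in C2 relative to C1 and 2 in C3 relative to C2, against 2865 and 3937 of all tested genes. In that fit H2-DMa passed in B relative to A (limma adjusted p = 0.0196). Among all genes, fits of 4 libraries called 2538 in B relative to A and 2375 in C1 relative to A, with fewer libraries to estimate the spread. Depth limits Ciita in B and A, and the floor hides a few reads in C3.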
